A study of Mus musculus with 36 samples.

Results

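MC38 tumors were compared with lungs of mice under immune checkpoint blockade, in 6 of the 36 bulk RNA sequencing libraries of the series: 3 of tumor and 3 of lung, chosen by their tissue and treatment labels alone. MC38 is a mouse colon carcinoma cell line that grows as a transplanted tumor in C57BL/6 mice. The tumor ICB group and the lung ICB group came from wild-type C57BL/6 mice that bore MC38 tumors, were matched for age and sex, and received anti-PD1 together with anti-CTLA4 at a high dose (ICB). The tumor IgG group and the lung IgG group, with 3 libraries each, came from mice of the same kind given control IgG, and they are used only to ask how far the tumor-lung difference depended on treatment. Ages, sex and the site of tumor growth are not stated in the labels. The remaining 24 libraries cover kidney, liver, skeletal muscle and heart under both treatments. Nothing in the labels states that the libraries within a group are different mice, and the spread behind the p-values may therefore be technical.

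Anti-PD1 and anti-CTLA4 block inhibitory receptors on T cells, and T cells and NK cells released from inhibition make interferon-gamma, which acts through IRF1, among other factors, on guanylate binding proteins, MHC genes and the chemokines Cxcl9 and Cxcl10. Type I interferons act on an overlapping set of antiviral genes. The lung is rich in leukocytes at rest: it holds resident alveolar macrophages, circulating and marginated neutrophils and lymphocytes in its capillaries, and epithelial cells that present antigen. The tumor was set against it as a leukocyte-rich organ of treated mice.

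Levels are given as FPKM, reads scaled to gene length and library size, as the authors deposited them, and each library held between 19005189 and 25512980 reads recovered from these values. Differences are given as tumor minus lung on the log2(FPKM + 1) scale, which understates the change of genes with low FPKM, with p-values from limma adjusted over all genes tested. Of the 18760 genes used, 13242 reached 1 FPKM in 3 or more of the 6 libraries and were tested. Of these, 42.8% were higher and 36.2% were lower in tumor at an adjusted p below 0.05, 20.0% were higher and 21.7% lower when a log2 difference of at least 1 was asked as well, and in 81.9% the 2 groups did not overlap. The median difference of all tested genes was 0.11. With so many genes past the threshold, a call on its own says little about a gene list, and the size and the uniformity of the differences carry more. The counts given for each list below are to be read beside these shares of all genes. Genes that passed the filter through tumor alone or lung alone could only come out higher in that tissue. "Past both rules" below means an adjusted p below 0.05 and a difference of at least 1. In bulk tissue, fewer cells of a type and less of the RNA per cell cannot be told apart.

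The tissue labels held for the lung. Sftpc, which encodes the surfactant protein of alveolar type II cells, was listed at 0 in all 3 tumor libraries and had 8025, 10720 and 9336 FPKM in the lung libraries. Scgb1a1, the secretoglobin of club cells, was 0, 0.0567 and 0 FPKM in tumor and 13216, 18989 and 9239 FPKM in lung. All 20 lung epithelial genes and all 20 endothelial genes were lower in tumor past both rules, with medians of -6.04 and -4.17. Of these, 16 and 5 had passed the filter through lung alone, which fixes their direction. All 20 genes of each list had passed the filter, so a run without it covers the same genes and cannot address this. For the tumor, most epithelial markers were at or near 0. Epcam, an epithelial adhesion molecule, was 0.0999, 0.0132 and 0 FPKM in tumor and 14.7, 19.6 and 15.98 FPKM in lung, and Krt8, a simple epithelial keratin, was 0.177, 0.823 and 0.0698 FPKM in tumor and 58.4, 71.5 and 76.5 FPKM in lung. Cldn3, a tight junction protein, was listed at 0 in all 3 tumor libraries. Of the 14 intestinal and simple epithelial genes 10 were tested, all of them through lung alone, which fixes their direction. All 10 were lower past both rules, and over all 14 without the filter the median was -2.83. The other 4, among them Cdh17, an intestinal cadherin, had a higher mean in tumor but were below 1 FPKM in every library. Cdh17 was 0.143, 0.284 and 0.141 FPKM in tumor and 0.0878, 0.117 and 0.0545 FPKM in lung. The tumor is called so by its label. Pecam1, an endothelial adhesion molecule, was 3.87, 5.47 and 5.14 FPKM in tumor and 103, 100 and 112 FPKM in lung.

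**Figure D1:**
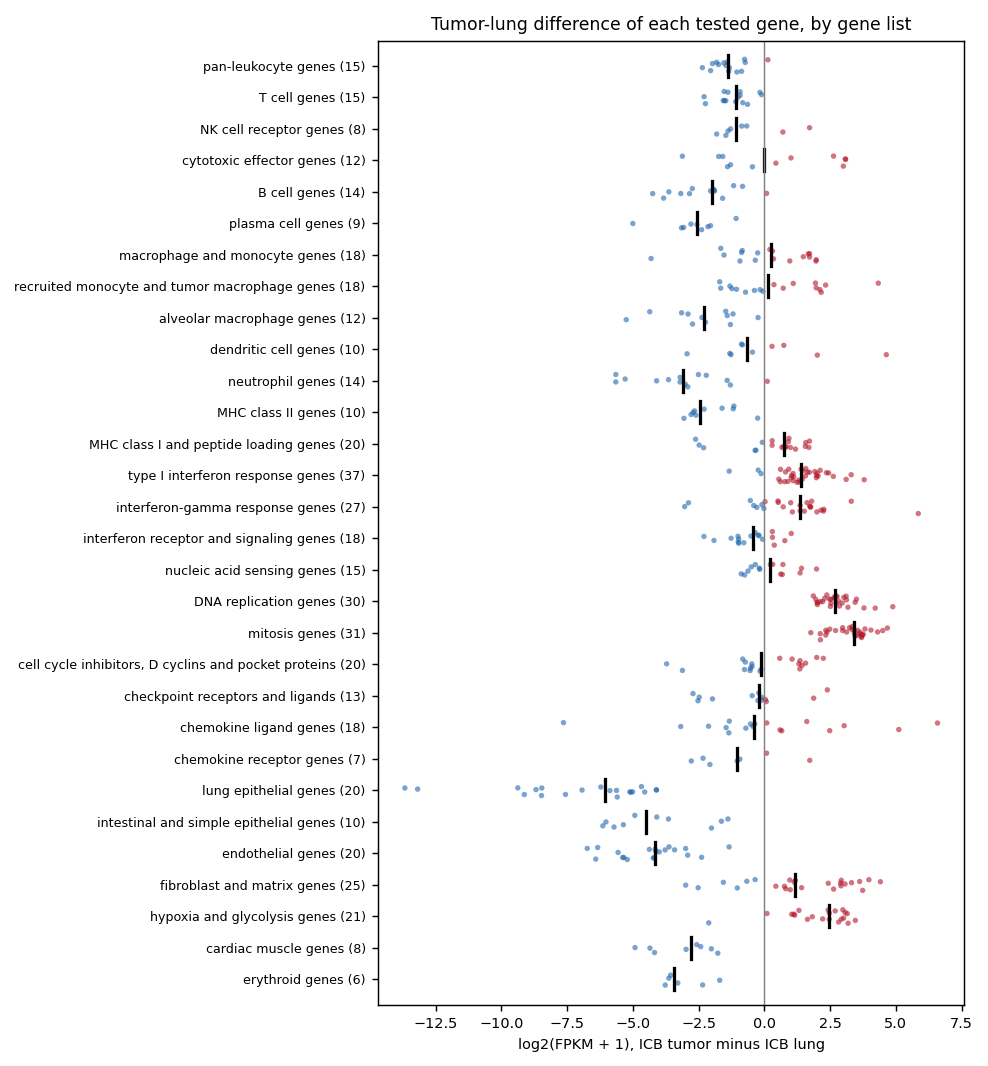
Each point is a tested gene, placed by its difference on the log2(FPKM + 1) scale, ICB tumor minus ICB lung, with 1 row per gene list, the number of tested genes in parentheses and a black bar at the median. DNA replication and mitosis genes lie wholly to the right of 0, with medians of 2.70 and 3.42, and pan-leukocyte, B cell, neutrophil and MHC class II genes lie mostly to the left.

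Genes shared by all leukocytes were lower in tumor than in lung. Ptprc, which encodes CD45, was 2.72, 2.73 and 3.99 FPKM in tumor and 14.4, 13.99 and 12.05 FPKM in lung. The groups did not overlap, the mean of the lung libraries was 4.28 times that of the tumor libraries, and the difference was -1.81 (SE 0.14, limma adjusted p = 7.38e-06). Of the 15 pan-leukocyte genes, 14 were lower, 11 of them past both rules, and none was higher, beside 36.2% and 21.7% of all genes tested; their median difference was -1.40. The strongest was Coro1a, an actin regulator of leukocytes, with 20.4, 20.3 and 24.2 FPKM in tumor and 124, 130 and 93.2 FPKM in lung (difference -2.36, adjusted p = 2.70e-06). Next in size were Rac2, the GTPase of blood cells, at -2.04, and Cd37, a tetraspanin of lymphocytes, at -1.97. The exception was Nckap1l, a part of the WAVE complex in blood cells, with 16.3, 18.8 and 24.4 FPKM in tumor and 20.4, 17.1 and 16.04 FPKM in lung (difference 0.13, adjusted p = 0.458). Summed over the 15 genes, tumor libraries held 188, 215 and 229 FPKM and lung libraries 655, 647 and 482 FPKM. Every tumor library was below every lung library in this sum.

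Against the other organs the tumor was not poor in leukocyte RNA. Ptprc averaged 3.15 ± 0.728 FPKM in tumor, 13.5 ± 1.25 FPKM in lung, 2.19 FPKM in liver, 0.926 FPKM in kidney, 0.872 FPKM in heart and 0.738 FPKM in muscle (SD where given, n = 3 each, ICB). Lung had the highest mean of the 6 tissues for 14 of the 15 pan-leukocyte genes. The mean log2 level of the list lay between 3.54 and 3.81 in the tumor libraries, between 4.77 and 5.17 in lung and between 2.80 and 3.94 in liver, so tumor and liver overlapped.

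T cell genes followed the pan-leukocyte genes. Of 20 listed genes 19 had values and 15 passed the filter, 4 of them through the lung libraries alone; 13 were lower, 9 past both rules, and none was higher. Without the filter all 19 had a lower mean in tumor and the median was -0.92. Cd3e, a signaling chain of the T cell receptor complex, was 0.335, 0.172 and 0.456 FPKM in tumor and 1.13, 1.34 and 0.971 FPKM in lung, and it did not pass the filter. Cd4 was 0.390, 0.295 and 0.844 FPKM in tumor and 1.33, 2.13 and 2.101 FPKM in lung (difference -0.92, SE 0.17, adjusted p = 0.00116). Cd8a, the co-receptor of cytotoxic T cells, was 0.784, 0.431 and 1.18 FPKM in tumor and 1.63, 2.68 and 2.18 FPKM in lung (difference -0.82, SE 0.18, adjusted p = 0.00301). In none of these 3 genes did the groups overlap. The largest differences were those of Cd2, an adhesion receptor (-2.29), Trbc2, a constant segment of the T cell receptor beta chain (-2.24), Lck, the kinase that starts T cell receptor signaling (-1.56), and Trbc1 (-1.53). The other 2 tested genes, Cd6 and Tcf7, had differences of -0.11 and -0.17 that did not pass. Trbc1 and Trbc2 are near-identical copies between which reads could be split.

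Relative to all leukocyte RNA, T cell genes taken as a list were not shown to be lower in tumor. Single tested members ranged from -2.29 to -0.11, on both sides of the pan-leukocyte median of -1.40. Their summed FPKM, as a percent of the summed pan-leukocyte FPKM of the same library, was 12.8, 10.9 and 12.02 in tumor and 9.18, 14.8 and 15.5 in lung, ranges that overlapped. Their mean log2 level relative to the pan-leukocyte list differed by 0.29, and by 0.76 when Ptprc alone was the denominator. The log2(FPKM + 1) scale understates the fall of genes with low FPKM, such as these, so both values are biased upward. For regulatory T cell genes, 7 of 8 with values and only Tnfrsf18 tested, the same share was 2.91, 1.56 and 2.11% in tumor and 0.693, 0.816 and 0.965% in lung. Foxp3, the transcription factor of regulatory T cells, was below 1 FPKM throughout, with 0.182, 0.196 and 0.261 FPKM in tumor and 0.280, 0.449 and 0.306 FPKM in lung. Il2ra, the CD25 chain of an interleukin receptor, was 1.18, 0.449 and 0.976 FPKM in tumor and 0.190, 0.430 and 0.213 FPKM in lung. These genes are too low for the share to say more than that tumor libraries lay above lung libraries in it.

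The cytotoxic program was divided, with the granzymes c to f on the tumor side. Gzma, a granzyme of NK and cytotoxic T cells, was 5.10, 3.45 and 3.52 FPKM in tumor and 27.4, 48.4 and 55.9 FPKM in lung (difference -3.12, SE 0.26, adjusted p = 1.07e-05). Gzmc went the other way with 61.1, 16.8 and 23.3 FPKM in tumor and 1.58, 3.60 and 2.68 FPKM in lung (difference 3.09, SE 0.43, adjusted p = 0.000239). In both genes the groups did not overlap. Gzmd, Gzme and Gzmf were higher as well, past both rules, by 3.0, 2.63 and 3.08, and since they are near-identical neighbors their reads could be split among them. In each of these 4 genes tumor replicate 1 was higher than the other tumor libraries put together. The lowest difference of Gzmc on leaving out each library in turn was 2.56. Gzmb, the main granzyme of activated killer cells, was 26.3, 8.86 and 14.1 FPKM in tumor and 5.65, 6.36 and 9.09 FPKM in lung (difference 1.01, SE 0.34, adjusted p = 0.0246). Its groups overlapped, and without lung replicate 1 or 2 its adjusted p was 0.0838 or 0.0779. Prf1, which encodes the pore-forming perforin, was 16.9, 4.76 and 8.54 FPKM in tumor and 4.43, 6.67 and 8.53 FPKM in lung and did not pass (difference 0.44, adjusted p = 0.324). Without tumor replicate 2 its difference was 0.83 with an adjusted p of 0.0496, and without tumor replicate 1 it was 0.013. Of 12 tested cytotoxic genes 5 were higher and 6 lower, beside 42.8% and 36.2% of all genes tested, with a median of -0.01.

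NK cell receptor genes were mostly lower in tumor. Ncr1, which encodes the receptor NKp46, was 0.529, 0.474 and 0.389 FPKM in tumor and 3.24, 3.72 and 5.78 FPKM in lung, groups that did not overlap (difference -1.81, SE 0.17, adjusted p = 2.25e-05). Of 14 genes 8 passed the filter, 3 through lung alone, and 6 were lower and 2 higher. The higher genes were Klra4, with 8.44, 10.3 and 6.20 FPKM in tumor and 1.19, 2.15 and 2.13 FPKM in lung (difference 1.72), and Eomes, a T-box factor of NK and CD8 T cells, at 0.70. Klra genes form a cluster of similar copies, so the value of Klra4 is uncertain. Over all 14 genes without the filter the median was -0.80, with 12 lower and 2 higher means. As a percent of the pan-leukocyte sum the list made up 11.9, 9.69 and 9.01 in tumor and 4.38, 5.75 and 8.40 in lung, which did not overlap. The uncertain Klra4 alone gave 8.44, 10.3 and 6.20 of the 22.4, 20.8 and 20.6 FPKM summed over the list in tumor. The higher share in tumor therefore rests in large part on that gene.

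B cell genes were lower in tumor than in lung. Cd79a, a signaling chain of the B cell receptor, was 1.98, 2.87 and 1.58 FPKM in tumor and 28.3, 30.8 and 22.6 FPKM in lung (difference -3.18, limma adjusted p = 1.16e-06). The groups did not overlap. Blk and Fcmr were listed at 0 in all 3 tumor libraries. Of 15 B cell genes 14 passed the filter, 9 of them through lung alone, and 13 were lower, 12 past both rules; the median of all 15 without the filter was -1.93. Pax5, the B cell transcription factor, was the tested gene that did not pass, with 2.52, 3.57 and 2.44 FPKM in tumor and 2.61, 2.52 and 2.66 FPKM in lung. As a percent of the pan-leukocyte sum, B cell genes made up 5.34, 5.37 and 4.71 in tumor and 22.5, 28.5 and 28.3 in lung, which did not overlap. On the log2 scale the mean level of the list relative to the pan-leukocyte list differed by -0.82, and by -0.35 when Ptprc alone was the denominator.

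Immunoglobulin genes showed the same side with more spread between libraries. Igkc, the kappa light chain constant region, was 0.602, 1.32 and 8.23 FPKM in tumor and 87.4, 194 and 64.3 FPKM in lung (difference -5.00, SE 0.65, adjusted p = 0.000154). Jchain, which joins secreted IgM and IgA, was 0.0925, 0.0429 and 0.375 FPKM in tumor and 1.30, 7.25 and 0.932 FPKM in lung and was not tested. All 13 plasma cell genes with values, of 14 listed, had a lower mean in tumor, and 11 were past both rules without the filter. Summed, they came to 1.28, 3.34 and 13.4 FPKM in tumor and 131, 303 and 95.7 FPKM in lung, so that tumor replicate 3 and lung replicate 2 were the highest of their groups. The lambda constant genes Iglc1, Iglc2 and Iglc3 are near-identical copies.

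Macrophage genes were divided, at shares near those of all genes tested. Csf1r, the receptor for macrophage colony-stimulating factor, was 11.8, 14.8 and 17.98 FPKM in tumor and 57.3, 48.2 and 40.6 FPKM in lung (difference -1.66, SE 0.18, adjusted p = 5.02e-05). Adgre1, which encodes F4/80, was 8.30, 11.9 and 16.5 FPKM in tumor and 13.1, 6.91 and 8.16 FPKM in lung, with overlapping groups (difference 0.35, adjusted p = 0.269). C1qa, a subunit of complement C1q made by macrophages, was 93.7, 95.7 and 144 FPKM in tumor and 28.2, 38.3 and 34.8 FPKM in lung (difference 1.67, SE 0.19, adjusted p = 7.85e-05). C1qa thus stood on the opposite side from Csf1r, and C1qb and C1qc, the other subunits, were both higher by 1.72. Also higher were Fcgr1, the high-affinity IgG receptor, at 1.97, and Cd63, a lysosomal tetraspanin made by many cell types, at 1.96. Lower past both rules beside Csf1r were Mertk, a receptor for apoptotic cells (-1.53), and Lyz2, lysozyme, with 81.2, 169 and 91.8 FPKM in tumor and 2156, 2416 and 1923 FPKM in lung (-4.31). Lyz2 is also made by alveolar type II cells. All 18 genes were tested; 7 were higher and 6 lower, with a median of 0.26.

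Genes of recruited monocytes and tumor macrophages did not share a direction. Arg1, the arginase of alternatively activated macrophages, was 9.41, 8.16 and 8.56 FPKM in tumor and 1.29, 1.40 and 0.846 FPKM in lung (difference 2.16, SE 0.12, adjusted p = 1.43e-06). Nos2, the inducible nitric oxide synthase, was 10.4, 5.71 and 7.08 FPKM in tumor and 0.897, 0.319 and 0.946 FPKM in lung (difference 2.33, SE 0.22, adjusted p = 2.51e-05). Arginase and nitric oxide synthase, which compete for arginine, were thus both higher. Spp1, osteopontin, which tumor cells can also make, was 667, 845 and 603 FPKM in tumor and 50.3, 38.2 and 19.8 FPKM in lung (difference 4.33). Ms4a7, a macrophage membrane protein, was higher by 2.11. Ly6c2, the marker of inflammatory monocytes, was 5.97, 13.7 and 4.74 FPKM in tumor and 22.5, 21.6 and 15.8 FPKM in lung (difference -1.31, SE 0.33, adjusted p = 0.00612). Plac8 (-1.70), F13a1, the coagulation factor XIII A chain (-1.66), Apoe (-1.23) and Vcan, versican (-1.06), were lower with it. The list had 8 higher and 6 lower of 18 tested, near the 42.8% and 36.2% of all genes tested. Past both rules were 7 and 5, and 3 passed the filter through tumor alone. In tumor, Ly6c2, Plac8 and F13a1 were highest in replicate 2.

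Genes of resident alveolar macrophages marked the lung. Siglecf, a sialic acid receptor, was 0.0626, 0 and 0 FPKM in tumor and 2.39, 1.15 and 1.14 FPKM in lung (difference -1.29, adjusted p = 0.000212), and Marco, a scavenger receptor, was 0.166, 0.365 and 0.245 FPKM in tumor and 6.51, 14.8 and 3.89 FPKM in lung (difference -2.73, adjusted p = 0.000182). Of 13 genes with values 12 passed the filter, 7 through lung alone, which fixes their direction. In all, 11 were lower past both rules, beside 21.7% of all genes tested. Without the filter all 13 had a lower mean in tumor, with a median of -2.23. The tested gene that did not pass was Fabp4, a fatty acid binding protein shared with fat cells and endothelium. It was at 2.30, 5.26 and 3.82 FPKM in tumor and 1.88, 17.7 and 2.04 FPKM in lung. The largest differences were those of Ear2, an eosinophil-type ribonuclease (-5.25), and Chil3, a chitinase-like protein (-4.36).

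Neutrophil genes differed more than any other leukocyte list with 10 or more tested genes, with a median of -3.11. S100a8, a calcium-binding alarmin of neutrophils, was 2.18, 8.72 and 1.77 FPKM in tumor and 336, 343.5 and 91.9 FPKM in lung (difference -5.65, SE 0.61, adjusted p = 5.30e-05). Ly6g, the defining surface marker of mouse neutrophils, was listed at 0 in all 3 tumor libraries and had 5.48, 6.88 and 2.59 FPKM in lung (adjusted p = 3.78e-05). Of 17 genes with values 14 passed the filter, 4 through lung alone, and 12 were lower past both rules; Mmp9 and Il1r2 did not pass. Mmp9, a gelatinase that other cells make too, was 19.8, 17.5 and 25.4 FPKM in tumor and 24.7, 24.6 and 11.2 FPKM in lung. Lung replicate 3 had the lowest neutrophil sum of its group, 403 FPKM beside 1155 and 1309 FPKM, against 34.0, 61.1 and 37.9 FPKM in tumor.

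Red cell genes were lower in tumor as well. The 8 erythroid genes with values summed to 53.0, 131 and 75.04 FPKM in tumor and to 1527, 2119 and 348 FPKM in lung, and all 6 tested genes were lower past both rules. Lung replicate 3 was the lowest lung library here, as in the neutrophil sum and in the B cell sum, which was 147, 184 and 136 FPKM in lung. It was the highest in the NK cell receptor sum, which was 28.7, 37.2 and 40.4 FPKM in lung. The part that retained blood had in the neutrophil, B cell and NK cell differences was not tested.

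Most of the 16 dendritic cell genes had a lower mean in tumor, but the tested members did not share a direction. Flt3, the growth factor receptor of dendritic cell progenitors, was 0.0990, 0.153 and 0.0561 FPKM in tumor and 1.49, 0.942 and 0.987 FPKM in lung. Xcr1, the receptor of cross-presenting dendritic cells, was 0.00654, 0.0425 and 0.219 FPKM in tumor and 0.265, 0.501 and 0.630 FPKM in lung, and Siglech, of plasmacytoid dendritic cells, was 0.0946, 0.287 and 0.149 FPKM in tumor and 0.438, 0.627 and 0.604 FPKM in lung. None of these 3 genes passed the filter, and in none did the groups overlap. Clec9a, a receptor for dead cells on cross-presenting dendritic cells, was tested and lower, by 2.94 on the log2 scale, with 0.239, 0.230 and 0.354 FPKM in tumor and 9.35, 6.65 and 10.7 FPKM in lung. In the opposite direction, Fscn1, the actin bundler fascin, which mature dendritic cells share with many carcinoma and mesenchymal cells, was 161, 162 and 153 FPKM in tumor and 2.72, 9.13 and 5.98 FPKM in lung (difference 4.64, adjusted p = 3.55e-06). Ly75, which encodes the endocytic receptor DEC-205, was higher by 2.01. Of 16 genes 10 were tested. Among these 3 were higher and 5 lower, beside 42.8% and 36.2% of all genes tested, with a median of -0.64. Over all 16 without the filter, 12 had a lower and 4 a higher mean, with a median of -0.57.

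**Figure D2:**
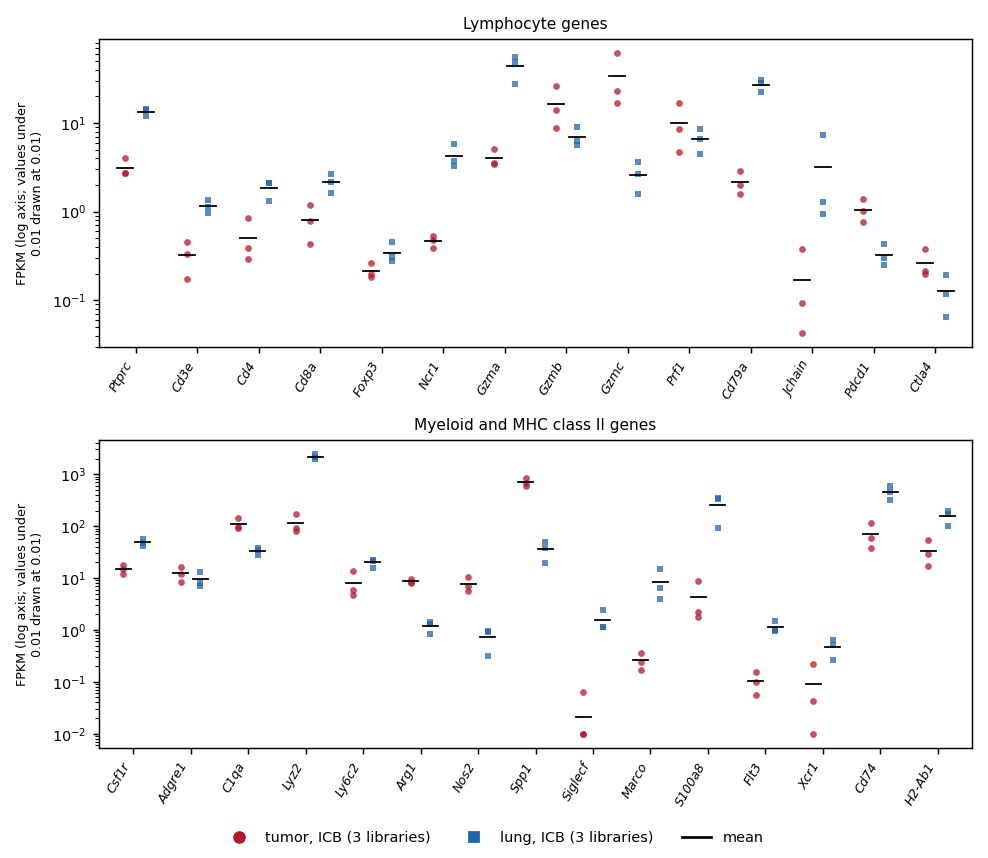
FPKM of lymphocyte genes (upper panel) and of myeloid and MHC class II genes (lower panel) in each library, on a log axis with values under 0.01 drawn at 0.01, tumor as circles left of lung as squares and black bars at the means. Cd79a and Siglecf lie far lower in tumor, Gzmc, Arg1, Nos2 and Spp1 lie higher, and Gzmb, Prf1 and Adgre1 overlap.

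Checkpoint genes did not share a direction. Pdcd1, which encodes the PD-1 receptor that the treatment targets, was 1.01, 0.756 and 1.39 FPKM in tumor and 0.250, 0.428 and 0.300 FPKM in lung, and Ctla4 was 0.375, 0.197 and 0.216 FPKM in tumor and 0.194, 0.118 and 0.0654 FPKM in lung. Both lay higher in every tumor library than in any lung library but were too low to be tested. Cd274, the ligand PD-L1, was 6.73, 4.91 and 7.34 FPKM in tumor and 5.25, 7.05 and 8.15 FPKM in lung, with overlapping groups (difference -0.09, adjusted p = 0.649). Tnfrsf9, the activation receptor 4-1BB, was 9.98, 6.13 and 6.85 FPKM in tumor and 0.411, 0.840 and 0.627 FPKM in lung (difference 2.39, adjusted p = 5.70e-06), and Cd276, the B7-H3 ligand of many tumors, was higher by 1.87. Btla, an inhibitory receptor of B and T cells (-2.71), Entpd1, the ectonucleotidase CD39 (-2.52), Vsir, the inhibitory receptor VISTA (-2.48), and Nt5e, the ectonucleotidase CD73 (-1.97), were lower. Of 18 listed genes 13 were tested.

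The monocyte-attracting chemokines Ccl2 and Ccl7 were among the 10 genes with the largest differences on the tumor side. Ccl2, which draws CCR2-bearing monocytes, was 121, 180 and 113 FPKM in tumor and 0.186, 0.533 and 0.562 FPKM in lung, and its difference of 6.58 (SE 0.19, adjusted p = 6.74e-08) was the largest of any gene higher in tumor that the naming rule admits. Ccl7, which binds the same receptor, was 42.7, 58.4 and 32.5 FPKM in tumor and 0.0754, 0.344 and 0.457 FPKM in lung (difference 5.11). Ccl12 was higher by 3.03, Ccl8 by 2.49 and the neutrophil attractant Cxcl1 by 1.61. Ccr2, the receptor of Ccl2, Ccl7 and Ccl12, was 5.75, 5.57 and 4.09 FPKM in tumor and 11.7, 8.31 and 7.48 FPKM in lung (difference -0.72, adjusted p = 0.00575). These 3 ligands and Ccr2 thus lay on opposite sides. Lower were Cxcl15, a chemokine of lung epithelium, at -7.64, and Cxcl12, a stromal chemokine, with 0.783, 2.37 and 2.17 FPKM in tumor and 24.9, 20.3 and 24.7 FPKM in lung (difference -3.18). Its receptor Cxcr4 was lower by 2.78 on the log2 scale. Among the 18 tested ligands 6 were higher and 7 lower, beside 42.8% and 36.2% of all genes tested.

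MHC class II genes were lower in tumor. Cd74, the invariant chain that guides class II molecules, was 58.3, 37.4 and 114 FPKM in tumor and 321, 446 and 598 FPKM in lung (difference -2.79, SE 0.39, adjusted p = 0.000252). H2-Ab1, a class II beta chain, was 28.6, 17.1 and 53.3 FPKM in tumor and 101, 170 and 195 FPKM in lung (difference -2.29, adjusted p = 0.00086). The groups did not overlap in either gene, and tumor replicate 3 was the highest of its group in both. All 11 genes had a lower mean in tumor; 10 passed the filter, 3 through lung alone, and 9 of the 10 were past both rules. H2-DMb1, a chain of the peptide exchange factor, did not pass (difference -0.26), while its neighbor H2-DMb2 had the largest difference of the list, -3.06.

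MHC class I and peptide loading genes went the other way in most members. Psmb8, a subunit of the immunoproteasome that interferon induces, was higher. So were Psmb9, Psmb10, Psme1, Psme2, Tap1, Tap2 and Nlrc5, the transactivator of class I genes. In all, 13 of 20 tested genes were higher and 3 lower, beside 42.8% and 36.2% of all genes tested. Past both rules were 5 and 3, not far from the shares of 20.0% and 21.7%. The median was 0.76. Psmb10 was 108, 105 and 108 FPKM in tumor and 25.9, 36.8 and 33.7 FPKM in lung (difference 1.72, SE 0.14, adjusted p = 1.06e-05). The classical heavy chain H2-K1 was 519, 442 and 522 FPKM in tumor and 313, 445 and 465 FPKM in lung (difference 0.30, adjusted p = 0.187). B2m, the light chain of class I molecules, was 625, 619 and 675 FPKM in tumor and 666, 858 and 887 FPKM in lung (difference -0.32, adjusted p = 0.125). Both genes thus had overlapping groups. Without lung replicate 1 the difference of B2m was -0.45 with an adjusted p of 0.0489. The 3 lower genes were the nonclassical H2-Q6 (-2.62), H2-Q7 (-2.48) and H2-T23 (-2.31), of which H2-Q6 and H2-Q7 are near-identical copies.

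Interferon response genes were higher in tumor although leukocyte genes were lower. Their known switch is the interferon-stimulated response element (ISRE), which interferon regulatory factors bind. It was searched here as GAAA, any 2 bases and GAAA on both strands in the 250 bases before the start of each gene, from the RefSeq promoter table for GRCm38.p6. Promoters are shown for 3 genes on which the interferon results turn, in the direction of transcription, with the matches in capitals. Isg15 lies at chr4:156200819-156201068 on the minus strand, Gbp2 at chr3:142620413-142620662 on the plus strand and Cxcl10 at chr5:92348890-92349139 on the minus strand.
Isg15: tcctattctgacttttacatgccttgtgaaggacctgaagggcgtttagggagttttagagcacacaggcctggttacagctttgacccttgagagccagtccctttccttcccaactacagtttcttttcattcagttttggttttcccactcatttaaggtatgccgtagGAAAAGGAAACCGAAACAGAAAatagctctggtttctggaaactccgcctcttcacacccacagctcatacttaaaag
Gbp2: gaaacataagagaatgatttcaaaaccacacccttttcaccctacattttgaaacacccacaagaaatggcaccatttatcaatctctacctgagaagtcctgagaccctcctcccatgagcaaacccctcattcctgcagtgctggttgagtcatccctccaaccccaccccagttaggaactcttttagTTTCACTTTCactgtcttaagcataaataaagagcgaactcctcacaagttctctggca
Cxcl10: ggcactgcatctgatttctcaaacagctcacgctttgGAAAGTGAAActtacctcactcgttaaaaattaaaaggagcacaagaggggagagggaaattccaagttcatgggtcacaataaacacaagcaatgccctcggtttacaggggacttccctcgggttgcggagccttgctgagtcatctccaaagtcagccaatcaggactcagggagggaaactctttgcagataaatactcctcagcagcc
Isg15 holds 3 matches that overlap each other, beginning 78, 72 and 66 bases before the start. Gbp2 holds 1 match on the opposite strand, at 59 bases, and Cxcl10 holds 1 at 213 bases. Of the 27 promoters found for the 37 type I interferon genes 48.1% held a match, as did 63.2% of the 19 found for the 32 interferon-gamma genes, beside 3.04% of 27018 promoters. The gamma-activated sequence, searched as TTCNNNGAA, was in 14.8% and 42.1% of these promoters and in 7.18% of all. Matches of the motifs may overlap one another, and a match is a description of the letters, not a bound site.

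Type I interferon response genes were higher in 34 of 37 members, 27 of them past both rules, beside 42.8% and 20.0% of all genes tested, and 1 was lower. Their median difference was 1.40, and single genes ranged from -1.34 to 3.80. Isg15, a ubiquitin-like modifier, was 148, 181 and 134 FPKM in tumor and 9.83, 24.5 and 19.5 FPKM in lung. Every tumor library was above every lung library, and the difference was 3.11 (SE 0.29, adjusted p = 2.40e-05). Ifit1, which binds foreign RNA, was 27.8, 34.2 and 25.8 FPKM in tumor and 3.59, 8.49 and 9.12 FPKM in lung (difference 1.98, SE 0.29, adjusted p = 0.000295). Rsad2, which encodes viperin, had the largest difference, with 64.8, 60.6 and 40.6 FPKM in tumor and 1.75, 4.36 and 3.27 FPKM in lung (difference 3.80, adjusted p = 4.15e-06). Oasl1, a member of the oligoadenylate synthetase family that binds Irf7 RNA, was higher by 3.30, and Zbp1, a sensor of Z-form nucleic acids, by 2.62. Irf7, the factor that amplifies type I interferon, was 28.0, 39.7 and 28.7 FPKM in tumor and 6.71, 16.5 and 15.5 FPKM in lung (difference 1.33, SE 0.31, adjusted p = 0.00413).

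The member on the other side was Slfn5, a Schlafen family gene, with 9.39, 12.5 and 9.04 FPKM in tumor and 23.5, 28.1 and 30.8 FPKM in lung (difference -1.34, adjusted p = 6.58e-05). Ifi27l2a and Ifi209 did not pass, with differences of -0.23 and -0.12. Lung replicate 1 had the lowest level in the lung group for most of these genes: the summed FPKM of the list was 1142, 1396 and 1042 in tumor and 278, 585 and 535 in lung. Leaving out each library in turn kept the median between 1.13 and 1.54. Ifit3 and Ifit3b, the Oas genes and the Ifi200 genes (Ifi204, Ifi205, Ifi209) are families of similar copies among which reads could be split.

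Interferon-gamma response genes were higher in 19 of 27 tested members and lower in 3, beside 42.8% and 36.2% of all genes tested. Their median difference was 1.36. Of the 32 listed genes 5 were too low to be tested and 4 passed through tumor alone; over all 32 the median without the filter was 0.93. Cxcl10, a ligand of CXCR3 on activated T cells, was 77.1, 109 and 65.1 FPKM in tumor and 0.295, 0.441 and 0.582 FPKM in lung. Its mean was 191 times as high in tumor, with a difference of 5.85 (SE 0.19, adjusted p = 9.08e-08). Cxcl9, another CXCR3 ligand, was 11.8, 10.7 and 14.6 FPKM in tumor and 0.0601, 0.439 and 0.576 FPKM in lung (difference 3.30, SE 0.17, adjusted p = 9.07e-07). Both ligands were thus far higher in tumor, while the receptor Cxcr3, chosen here as their partner, was 0.471, 0.499 and 0.437 FPKM in tumor and 1.61, 2.40 and 2.08 FPKM in lung (difference -1.04, adjusted p = 5.50e-05). Gbp2, a guanylate binding protein of intracellular defense, was 78.0, 54.0 and 91.7 FPKM in tumor and 10.5, 13.8 and 25.7 FPKM in lung (difference 2.16, SE 0.32, adjusted p = 0.000311). Lung replicate 3 was the highest lung library for Gbp2 and for several of its relatives, and the groups still did not overlap in Gbp2. Gbp and Irgm genes are clusters of similar copies.

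Irf1, a transcription factor that acts on late interferon-gamma genes, was 33.1, 26.0 and 31.7 FPKM in tumor and 16.9, 24.6 and 21.4 FPKM in lung (difference 0.52, SE 0.16, adjusted p = 0.0156), and the groups did not overlap. Without tumor replicate 1 the difference was 0.45 (adjusted p = 0.059), without tumor replicate 3 it was 0.48 (adjusted p = 0.0502), and with quantile normalization of all 6 libraries it was 0.37 (adjusted p = 0.0583). The 3 lower genes of the interferon-gamma list were Icam1, the adhesion molecule of endothelium and leukocytes (-3.03), Serping1, the C1 inhibitor (-2.89), and Cd40 (-0.54).

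Interferon receptors and their kinases were not higher in tumor. Ifngr1, the ligand-binding chain of the interferon-gamma receptor, was 9.45, 9.66 and 10.4 FPKM in tumor and 62.7, 51.0 and 44.5 FPKM in lung (difference -2.30, SE 0.14, adjusted p = 1.67e-06). Ifnar2, a chain of the type I receptor, was 6.93, 6.71 and 7.30 FPKM in tumor and 14, 14.5 and 15.6 FPKM in lung (difference -0.97, adjusted p = 2.25e-05). Ifnar1, the other chain, had overlapping groups (difference -0.23, adjusted p = 0.0957). Ifnlr1, the interferon-lambda receptor of epithelial cells, was lower by 1.91 on the log2 scale, and Tyk2, a kinase of the type I receptor, by 1.27. Ptpn2, a phosphatase that dampens cytokine signaling, was higher by 1.02. Of 18 genes 3 were higher and 10 lower, beside 42.8% and 36.2% of all genes tested, with a median of -0.43.

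Genes that sense nucleic acids were divided. Cgas, the sensor of cytosolic DNA, was 5.82, 7.75 and 5.24 FPKM in tumor and 0.761, 0.942 and 0.761 FPKM in lung (difference 1.98, SE 0.14, adjusted p = 3.92e-06). Tmem173, which encodes its partner STING, was 21.8, 22.8 and 22.9 FPKM in tumor and 8.87, 8.49 and 7.23 FPKM in lung (difference 1.36, SE 0.10, adjusted p = 6.49e-06). Neither gene overlapped between the groups. Aim2, a DNA sensor of the inflammasome, was higher by 1.41, and Tlr7, an endosomal RNA receptor, was lower by 0.88 on the log2 scale. Of 15 tested genes 7 were higher and 5 lower, near the 42.8% and 36.2% of all genes tested. Past both rules were 3 higher genes.

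**Figure D3:**
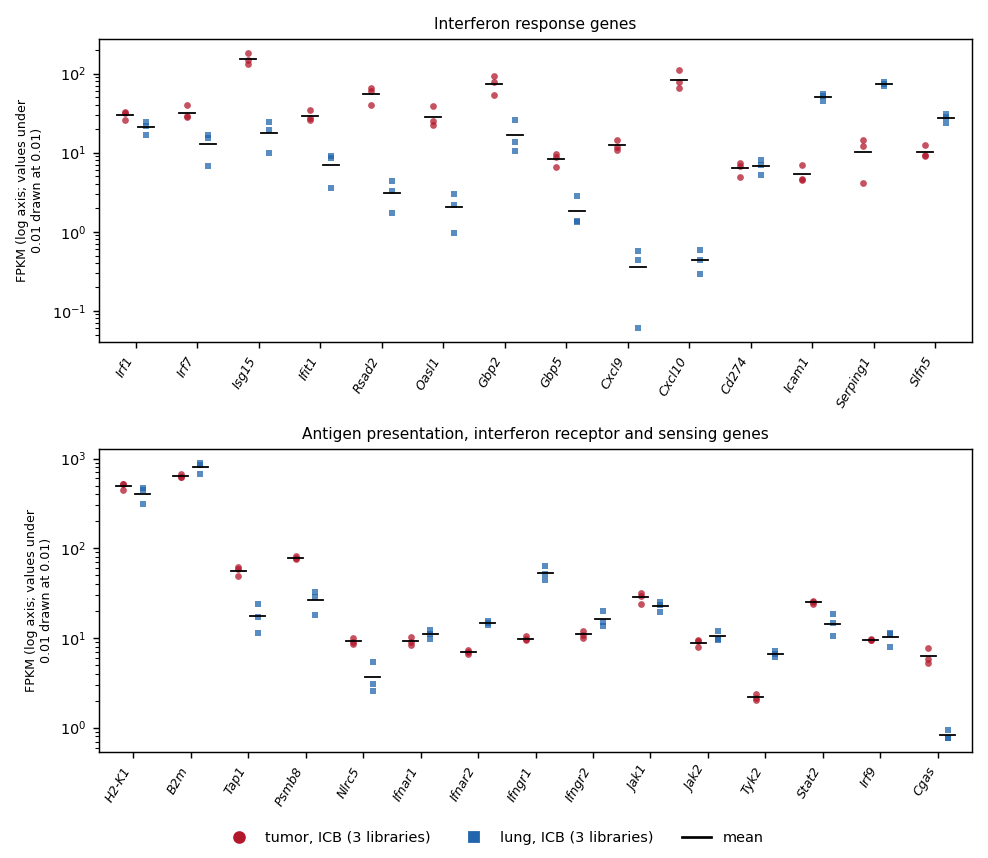
FPKM of interferon response genes (upper panel) and of antigen presentation, interferon receptor and sensing genes (lower panel) in each library, on a log axis with values under 0.01 drawn at 0.01, tumor as circles left of lung as squares and black bars at the means. Isg15, Rsad2, Cxcl9 and Cxcl10 are well above lung, while Cd274, H2-K1, B2m and Ifnar1 overlap and Ifngr1 lies below.

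DNA replication and mitosis genes were higher in tumor in every tested member. The E2F factors switch on genes of DNA replication at the start of S phase, and CCAAT boxes bound by NF-Y are known from promoters of mitotic genes. E2F sites were searched as TTTGGCGC, TTTCCCGC, TTTCGCGC or TTTGCCGC, and CCAAT boxes as CCAAT, both on both strands, in the same 250 bases. Mcm5 (chr8:75109259-75109508, plus strand) is shown for replication, with E2F matches in capitals, and Cdk1 (chr10:69352913-69353162, minus strand) and Top2a (chr11:99024190-99024439, minus strand) are shown for mitosis, with CCAAT matches in capitals.
Mcm5: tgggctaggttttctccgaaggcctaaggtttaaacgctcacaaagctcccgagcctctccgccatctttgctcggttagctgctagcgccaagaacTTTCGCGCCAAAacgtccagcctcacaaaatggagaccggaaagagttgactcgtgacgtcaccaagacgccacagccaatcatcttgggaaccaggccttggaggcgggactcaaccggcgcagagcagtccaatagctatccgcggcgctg
Cdk1: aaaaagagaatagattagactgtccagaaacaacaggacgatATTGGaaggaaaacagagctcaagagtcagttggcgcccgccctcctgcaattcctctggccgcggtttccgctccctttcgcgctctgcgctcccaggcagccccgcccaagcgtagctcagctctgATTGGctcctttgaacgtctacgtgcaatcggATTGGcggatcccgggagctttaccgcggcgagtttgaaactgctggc
Top2a: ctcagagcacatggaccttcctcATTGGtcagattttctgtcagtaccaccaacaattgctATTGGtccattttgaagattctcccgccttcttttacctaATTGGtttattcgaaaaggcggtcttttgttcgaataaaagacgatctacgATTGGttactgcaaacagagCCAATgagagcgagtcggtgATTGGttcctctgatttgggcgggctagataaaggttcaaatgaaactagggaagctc
The matches of Mcm5 begin 153 and 149 bases before the start and overlap on opposite strands. Cdk1 holds 3 and Top2a 6 CCAAT matches. E2F matches were in 29.2% of the 24 promoters found for replication genes and in 1.91% of all 27018. CCAAT boxes were in 66.7% of those 24, in 77.8% of the 27 found for mitosis genes and in 34.5% of all. No ISRE match was found in the 24 replication promoters and 3.70% of the mitosis promoters held 1.

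All 30 DNA replication genes were higher in tumor past both rules, beside 20.0% of all genes tested, with a median of 2.70. Of the 30, 12 had passed the filter through tumor alone, which fixes their direction. Mcm2, a subunit of the replicative helicase, was 23.3, 29.2 and 21.0 FPKM in tumor and 1.69, 1.83 and 2.20 FPKM in lung (difference 3.12, SE 0.14, adjusted p = 3.77e-07). Mcm5, of the same helicase, was 54.5, 61.7 and 49.1 FPKM in tumor and 2.56, 3.10 and 3.54 FPKM in lung (difference 3.79, SE 0.13, adjusted p = 1.24e-07). Pcna, the sliding clamp, which quiescent tissue also uses in repair, was 68.3, 85.02 and 68.1 FPKM in tumor and 17.4, 20.5 and 16.9 FPKM in lung (difference 1.96, SE 0.13, adjusted p = 3.21e-06). In none of the 30 genes did the groups overlap, beside 81.9% of all genes tested without overlap. For the 12 that passed through tumor alone the filter fixes this as well. The largest difference was that of Rrm2, the S-phase subunit of ribonucleotide reductase, with 71.8, 84.8 and 54.0 FPKM in tumor and 0.916, 2.04 and 1.30 FPKM in lung (4.88), followed by Uhrf1, which recruits maintenance methylation, at 4.21.

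Mitosis genes were higher in all 31 tested members, all past both rules, beside 20.0% of all genes tested, with a median of 3.42. Of the 31, 17 had passed through tumor alone, which fixes their direction. Kif11, the 1 gene too low to be tested, was 0.833, 0.516 and 0.438 FPKM in tumor and 0.0376, 0.0458 and 0.00632 FPKM in lung. Mki67, the nuclear antigen of cycling cells, was 41.2, 42.9 and 44.4 FPKM in tumor and 2.15, 2.69 and 2.85 FPKM in lung (difference 3.62, SE 0.11, adjusted p = 6.63e-08). Top2a, topoisomerase II alpha, was 55.9, 58.9 and 64.7 FPKM in tumor and 0.905, 1.63 and 1.68 FPKM in lung (difference 4.68, SE 0.15, adjusted p = 9.02e-08). Mki67 and Top2a thus spread little within tumor. Ccnb1, cyclin B1, was 16.8, 21.2 and 17.96 FPKM in tumor and 0.530, 0.536 and 0.527 FPKM in lung (difference 3.68, SE 0.11, adjusted p = 6.59e-08), and Cdk1, its kinase, was 13.02, 17.3 and 14.3 FPKM in tumor and 0.219, 0.624 and 0.522 FPKM in lung (difference 3.45, SE 0.15, adjusted p = 3.21e-07). Leaving out each library in turn kept the list median between 3.40 and 3.45. These genes mark cycling cells of any kind, and dividing leukocytes cannot be told apart from dividing tumor cells here.

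Cell cycle inhibitors and D cyclins were divided. Cdkn2a, the locus of p16 and p19Arf, was 4.92, 6.18 and 4.92 FPKM in tumor and 0.155, 0.400 and 0.468 FPKM in lung (difference 2.24, SE 0.13, adjusted p = 1.48e-06). Ccnd1, cyclin D1, was 33.2, 50.9 and 40.1 FPKM in tumor and 12.2, 15.5 and 21.0 FPKM in lung (difference 1.31, SE 0.22, adjusted p = 0.00062). Neither gene overlapped between the groups. Cdkn1a, the p53 target p21, was 26.7, 24.8 and 26.3 FPKM in tumor and 43.6, 46.0 and 23.7 FPKM in lung, with overlapping groups (difference -0.47, adjusted p = 0.0949). Without lung replicate 3 its difference was -0.77 with an adjusted p of 0.000594, and with quantile normalization it was -0.60 with an adjusted p of 0.0299. Cdkn1c, the imprinted inhibitor p57, was 0.271, 0.649 and 0.108 FPKM in tumor and 19.3, 15.3 and 14.9 FPKM in lung (difference -3.72, adjusted p = 4.23e-07), and Btg2, an antiproliferative gene, was lower by 3.11 on the log2 scale. Higher past both rules beside Cdkn2a and Ccnd1 were Rbl1, the pocket protein p107 (1.99), Cdk4 (1.57), Cdkn2c (1.43), Cdk2 (1.36), Cdk6 (1.35) and Ccnd2 (1.06). Of 20 genes 9 were higher and 7 lower, near the 42.8% and 36.2% of all genes tested. Past both rules were 8 and 2, beside 20.0% and 21.7%.

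Among the 6 tissues under ICB, tumor had the highest mean for 32 of 32 mitosis genes, 28 of 30 replication genes, 31 of 37 type I interferon genes and 19 of 32 interferon-gamma genes. Lung had the highest mean for 11 of 11 MHC class II genes, 18 of 19 T cell genes and 14 of 15 B cell genes, and liver for 13 of 18 macrophage genes. Isg15 averaged 154 ± 24.2 FPKM in tumor, 17.9 ± 7.44 FPKM in lung and 28.8 FPKM in liver. Cxcl10 averaged 83.8 ± 22.8 FPKM in tumor, 0.439 ± 0.143 FPKM in lung and 1.43 FPKM in liver (SD where given, n = 3 each).

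**Figure D4:**
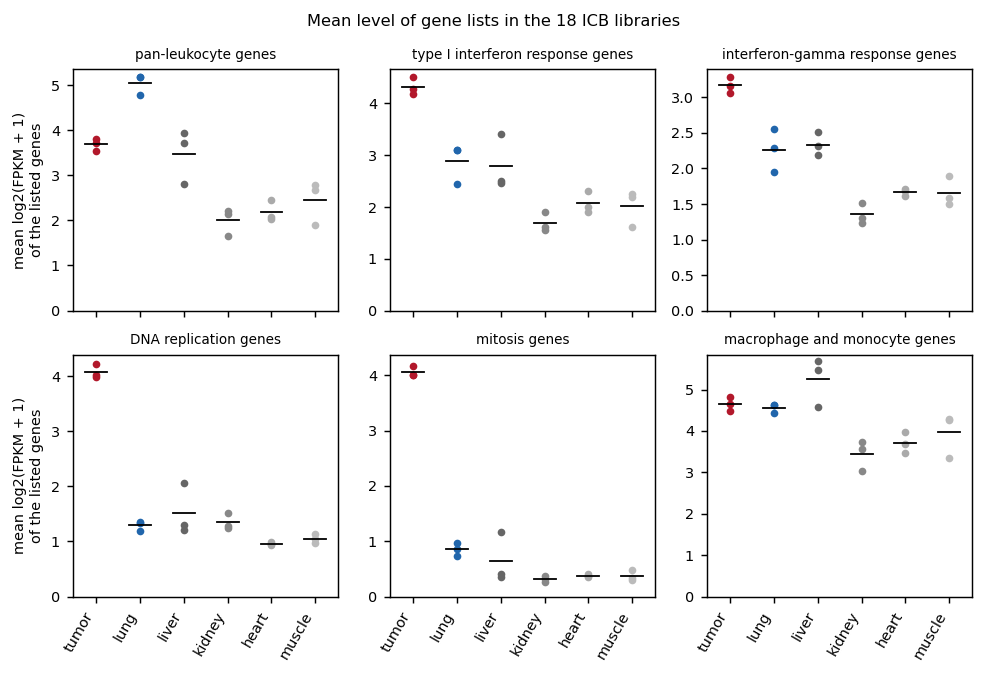
Mean log2(FPKM + 1) of 6 gene lists in each of the 18 ICB libraries, with tumor and lung first and black bars at the tissue means. The tumor libraries lie at 4.18 to 4.51 for type I interferon genes against 2.45 to 3.10 in lung, and at 3.99 to 4.16 for mitosis genes against 0.73 to 0.96 in lung, while for pan-leukocyte genes they lie at 3.54 to 3.81 against 4.77 to 5.17 in lung.

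Muscle and fat genes differed between libraries of a group as well as between the tissues. The 10 skeletal muscle genes summed to 19.4, 413 and 5.27 FPKM in tumor and to 4.45, 6.72 and 5.74 FPKM in lung, so that tumor replicate 2 stood apart. Acta1, skeletal muscle actin, was 8.30, 180 and 1.21 FPKM in tumor and 0, 0.108 and 0.0397 FPKM in lung (difference 3.89, SE 1.34, adjusted p = 0.0271), a call that was lost without any 1 lung library. Adipoq, the fat cell hormone adiponectin, was 0.211, 3.15 and 3.99 FPKM in tumor and 0.941, 11.6 and 1.92 FPKM in lung, with overlapping groups. The 9 adipocyte genes summed to 2.81, 65.7 and 58.4 FPKM in tumor and to 30.1, 214 and 38.1 FPKM in lung, with tumor replicate 1 the lowest and lung replicate 2 the highest library. The 8 cardiac muscle genes, which pulmonary veins also express in mice, summed to 4.83, 3.85 and 2.01 FPKM in tumor and to 86.5, 161 and 150 FPKM in lung. The part of these genes' source tissues in other differences was not tested.

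The tumor-lung difference was not shown to depend on treatment. Under IgG, with 13132 genes tested, 19.5% of genes were higher and 20.8% lower in tumor past both rules. This balance depended on the scale: with the values rescaled to TPM, 3566 genes were higher and 2345 lower past both rules under IgG, against 2565 and 2735 as deposited, and the median of all genes shifted by 0.25. Of the 2572 genes higher past both rules under ICB and tested under IgG, 2234 were higher past both rules under IgG as well, 86.9% of the ICB list and 88.3% of the IgG list. Of the 2739 lower genes 2485 were shared, 90.7% of the ICB list and 93.1% of the IgG list. A test of the difference between the 2 differences called 0 of 13242 genes with limma at an adjusted p below 0.05, and 655 genes (4.95%) had an unadjusted p below 0.05. The smallest adjusted p, 0.0870, was that of the row named Mir703, and that of the next genes was 0.804.

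The list medians of the tumor-lung difference lay close together under ICB and IgG for some lists and far apart for others. They were 2.70 and 2.68 for replication genes, 3.42 and 3.58 for mitosis genes and -1.40 and -1.15 for pan-leukocyte genes. For MHC class II genes, of which 10 and 9 were tested, they were -2.44 and -2.41. The NK cell receptor median was -1.07 over the 8 genes tested under ICB. Under IgG it was 0.28, but over only 6 of them that were also tested there, so these 2 medians cover different genes. Over the 8 genes the difference under ICB minus that under IgG had a median of -0.58. Of these genes 3 had an unadjusted limma p below 0.05 for the difference between arms. Erythroid medians were -3.43 under ICB and -5.57 under IgG, adipocyte medians -0.74 and -2.36, and skeletal muscle medians 1.78 and 0.24. For type I interferon genes they were 1.40 under ICB and 1.05 under IgG; 35 of 37 genes had a more positive difference under ICB, by a median of 0.46, but none passed the test and 1 had an unadjusted p below 0.05. With the values rescaled to TPM, these numbers were 28 of 37 genes and a median of 0.22. The median of all genes for this difference between arms was -0.0030 as deposited and -0.20 on the TPM scale. The summed FPKM of this list in the IgG arm was 605, 866 and 998 in tumor and 798, 304 and 237 in lung, so that lung replicate 1 of the IgG arm lay within the range of the tumor libraries. Cxcl10 averaged 41.6 ± 6.78 FPKM in IgG tumor and 0.284 ± 0.270 FPKM in IgG lung, and its difference was 0.79 larger under ICB, also not past the adjusted threshold.

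Cytotoxic genes had the reverse order of arms. Their median difference was -0.01 under ICB and 1.51 under IgG, and 5 of 12 genes had an unadjusted p below 0.05 for the difference between arms, with 0 past the adjusted threshold. Gzmb averaged 16.4 ± 8.94 FPKM in ICB tumor and 7.03 ± 1.82 FPKM in ICB lung, against 36.9 ± 16.2 FPKM in IgG tumor and 4.76 ± 3.47 FPKM in IgG lung (SD, n = 3 each). Prf1 averaged 10.1 ± 6.24 FPKM in ICB tumor and 6.54 ± 2.05 FPKM in ICB lung, against 26.6 ± 16.1 FPKM in IgG tumor and 3.86 ± 2.25 FPKM in IgG lung. Within the spread of these libraries the arms were not shown to differ in either gene. The IgG lung libraries differed among themselves in blood content: their erythroid sums were 15665, 8398 and 1582 FPKM, against 167, 217 and 35.1 FPKM in IgG tumor, and the part this had in the difference between arms was not tested.

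**Figure D5:**
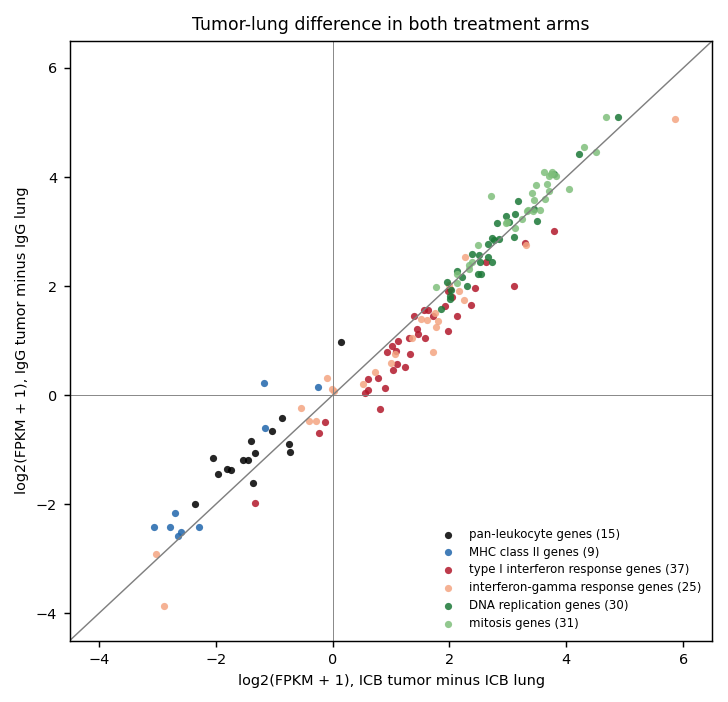
Difference of each gene on the log2(FPKM + 1) scale, tumor minus lung, under ICB (horizontal axis) and under IgG (vertical axis) for 6 gene lists, with the line of equal differences. Replication and mitosis genes lie along the line, and type I interferon genes lie mostly on its ICB side, with medians of 1.40 under ICB and 1.05 under IgG.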

How the data were processed

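Total RNA of flash-frozen tissue was sequenced as Illumina TruSeq libraries, per the labels' protocols. The authors deposited FPKM per gene for 36 libraries; HISAT2 2.1.0, edgeR and the mm10 build are named in the submitters' processing notes, and no counter, annotation or strand setting is stated there. All 18781 rows of the table were whole multiples of 1 read within a tolerance of 0.001, which gave the depths. The 15 rows without a name (at most 0.462% of FPKM) and 3 symbols on 2 rows each were left out, leaving 18760 genes.

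Genes that reached 1 FPKM in 3 or more of the 6 libraries compared were tested on log2(FPKM + 1) with limma 3.58.1 in R 4.3.3 (two-sided moderated test, trend on mean level, Benjamini-Hochberg adjustment over all genes tested, threshold 0.05). The difference between ICB and IgG was tested as an interaction over 12 libraries. The test was also run on simulated libraries drawn from the lung ICB means, with 200 genes changed and the same spread setting for every gene. The real groups differ in far more genes, so that run does not show how the test behaves on them. Summaries used Python 3.11.15 and pandas 2.3.3.

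Groups follow the labels. The genes named are a set chosen for their roles, the 10 largest differences each way, up to 4 largest of each list with members past both rules against the list's median, and the smallest p-values of the ICB-IgG test. Some of these are not reported here. Other genes, such as partners of a named gene and list members that did not pass, were named after their values were seen. Members and lists were chosen with earlier results of these data known. Alternatives were another pseudocount, filter, scaling or fit, limma-voom on the recovered reads, fits without 1 library and a replicate block.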

Additional observations from a re-analysis of the deposited data

How the results depend on the processing

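Requiring an FPKM of at least 1 in all 6 libraries, which removes genes that are near 0 in tumor, left 2546 lower genes under ICB (1001 past both rules) and 1799 under IgG (902 past both rules). The number of genes whose tumor-lung difference differed between ICB and IgG was 0, became 1 with quantile normalization, and ranged from 0 to 4 on leaving out each library: 1 without ICB lung replicate 2, 2 without IgG lung replicate 1 and 4 without IgG tumor replicate 3. The interferon-gamma median was 0.93 without the filter. With a pseudocount of 0.1 the replication median was 3.51 and the mitosis median 4.30, and with quantile normalization the mitosis median was 3.62. The dendritic cell median turned to 0.29 with the stricter filter (7 genes), and the adipocyte median, which ranged from -1.35 to 0.13 on leaving out each library, to 0.13 without ICB tumor replicate 1; the cause was not tested. On leaving out each library, higher genes numbered 5289 to 5666 under ICB and 4138 to 4728 under IgG, and lower genes 4609 to 4677 and 3533 to 3988. Of 1070 checks of named genes, 1055 kept their direction and side of the threshold, 9 lost the call and 6 gained one. Of 540 checks of list medians 484 moved by less than the spread between libraries, 54 moved by more and the 2 given above turned. Of 12 lineage levels relative to the pan-leukocyte list, 9 moved by more than this spread with Ptprc alone as the denominator. The FPKM scale carries no spike-in, so a shift common to all genes cannot be seen.

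No paired analysis was possible because tumor and lung under ICB share only 1 title number. In a fit of all 18 ICB libraries with the title number as a replicate block, 5142 genes were higher and 4548 lower, against 5466 and 4703 without the block, and the interaction with a block called 0 genes. Adgre1 gained a call in the fit with the block (0.65, adjusted p = 0.045).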

Other observations

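Glycolysis and hypoxia genes were higher in tumor in 19 of 21 members past both rules, beside 20.0% of all genes tested, with a median difference of 2.47 on the log2(FPKM + 1) scale. Slc16a3, which exports lactate, was 113, 105 and 119 FPKM in tumor and 9.96, 11.6 and 6.92 FPKM in lung (difference 3.46, limma adjusted p = 6.71e-07). Pgk1, a glycolytic kinase, was 371, 371 and 412 FPKM in tumor and 39.8, 47.7 and 37.4 FPKM in lung (difference 3.18). The groups did not overlap in either gene. Vegfa, the endothelial growth factor induced by hypoxia, was on the other side with 26.2, 22.5 and 32.3 FPKM in tumor and 87.9, 138 and 139 FPKM in lung (difference -2.11, adjusted p = 3.04e-05). The list median under IgG was 2.20.

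Matrix genes were higher in 18 and lower in 4 of 25 tested members, beside 42.8% and 36.2% of all genes tested. Their median difference was 1.18. Col5a1, a fibrillar collagen chain, was 112, 88.3 and 92.2 FPKM in tumor and 3.81, 2.83 and 4.27 FPKM in lung (difference 4.41, adjusted p = 1.19e-07). Acta2, smooth muscle actin, was 3.01, 7.01 and 7.15 FPKM in tumor and 35.8, 44.5 and 77.4 FPKM in lung (difference -2.99), and Eln, elastin, was lower by 2.52 on the log2 scale. Outside the lists, Slc7a5, an amino acid transporter, was 118, 151 and 107 FPKM in tumor and 3.46, 3.11 and 3.08 FPKM in lung (difference 4.89, adjusted p = 6.26e-08). Shisal2b had 51.3, 60.7 and 31.3 FPKM and Tex13b had 23.3, 31.6 and 24.5 FPKM in tumor, and both were listed at 0 in all 3 lung libraries.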
